A study of Danio rerio with 6 samples.

Results

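The genes described here are 6 rows of an expression table from zebrafish germline tissue, chosen by Ensembl gene ID as signals of the embryonic body axes. They are ndr1 (ENSDARG00000057096), a row selected under the name ndr2 (ENSDARG00000014309), bmp2b (ENSDARG00000041430), chrd (ENSDARG00000006110), smad5 (ENSDARG00000037238) and ctnnb1 (ENSDARG00000014571). All 6 are present among the 32253 features of the table. The names did not all hold. The table of gene names used here pairs ENSDARG00000014309 with spaw and pairs ndr2 with another row, ENSDARG00000101279. The former is therefore called spaw below, and the ndr2 row is given beside it. The same table gives the symbol BMP2 to ENSDARG00000041430 and to ENSDARG00000013409, so the name bmp2b rests on the choice of members alone.

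RNA was sequenced from adult wild-type zebrafish of the TLAB strain, with no transgene, mutation or treatment in any group. The groups were mature oocytes squeezed from females, whole ovary dissected from females and whole testis dissected from males, with 2 libraries each. The question posed to these rows is which patterning transcripts are at high and which at low levels in the libraries of mature oocytes. A low value does not show that the egg lacks the transcript. Values are FPKM, a level scaled by transcript length and by the size of the library, so levels of different genes can be compared within a library. Whether both libraries of a group stem from separate fish is not in the labels, so p-values measure only the spread between these libraries. Whole ovary and whole testis hold somatic cells and germ cells of many stages.

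The early fish embryo is laid out by transcripts and proteins that the mother placed in the egg and, later, by genes the embryo switches on itself. Nodal proteins are secreted ligands that bind activin receptors with the co-receptor Tdgf1 and induce mesoderm and endoderm. BMP ligands, countered by the secreted antagonist Chordin, set ventral against dorsal fates and signal through Smad5 and its relatives. Beta-catenin, encoded by ctnnb1 and by a second gene, ctnnb2, enters nuclei on the future dorsal side of the embryo and turns on the first organizer genes.

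Of the 6 genes, the intracellular transducers were abundant in the mature oocyte, whereas the ligands and the antagonist were scarce. At a threshold of 1 FPKM in both oocyte libraries, 2 of the 6 genes were detected, smad5 and ctnnb1, beside 31.5% of all features. In ovary 3 of the 6 were detected, with ndr1 added, and in testis 4 of the 6, with ndr1 and chrd added. The corresponding shares of all features were 32.7% and 30.6%. All 6 genes were above 0 in all 6 libraries.

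In oocyte the order of mean levels was smad5, ctnnb1 and ndr1, without overlap, and below them bmp2b, chrd and spaw, all under 0.1 FPKM, where neighbours overlapped. In ovary the order was smad5, ctnnb1, ndr1 and chrd without overlap, with spaw and bmp2b overlapping each other below them. In testis ctnnb1 and smad5 overlapped at the top, and ndr1 and chrd followed without overlap. The testis values of bmp2b and spaw did not overlap either, but both means were near 0.1 FPKM or less, and at unknown depth no order is read from values that low.

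**Figure D1:**
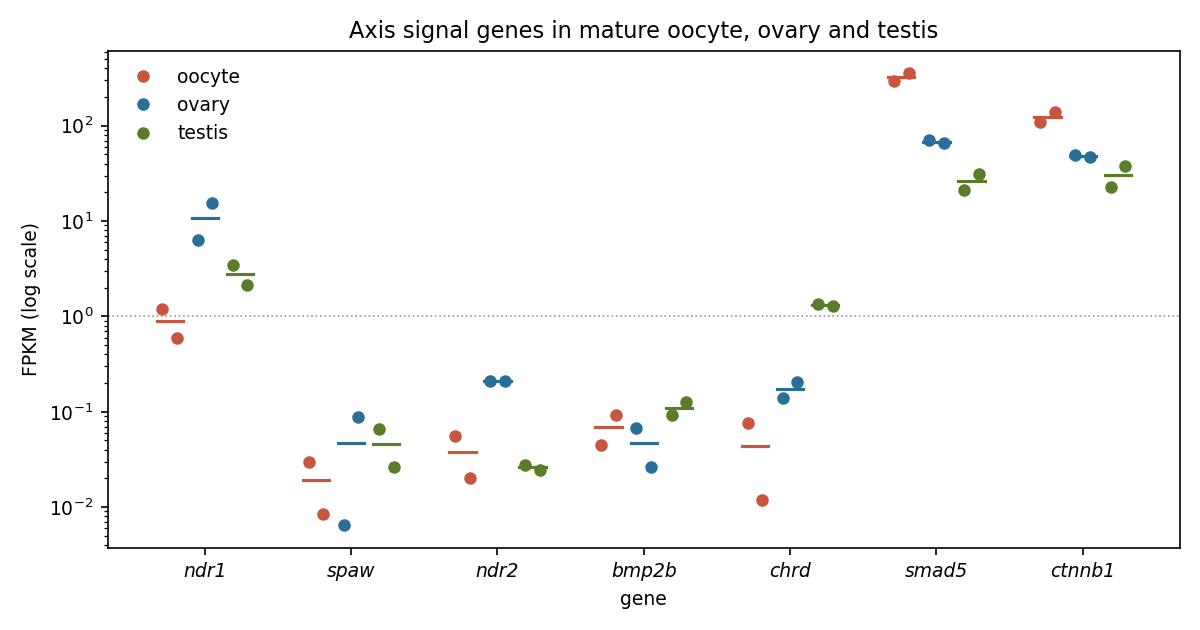
FPKM (log scale) of each gene in oocyte, ovary and testis. Points are the 2 libraries of a tissue, short bars their mean, and the dotted line marks 1 FPKM. The oocyte points of smad5 (298 and 354 FPKM) and ctnnb1 (109 and 138 FPKM) lie above those of the ligands and of chrd, and ndr1 is highest in ovary.

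The Nodal ligand ndr1, known as squint, was the only ligand of the 6 genes above 1 FPKM in any library. It was listed at 6.35 and 15.3 FPKM in the ovary libraries, 3.45 and 2.14 in the testis libraries and 1.2 and 0.598 in the oocyte libraries. Both ovary libraries lay above all others, and both oocyte libraries lay below all others. The ovary libraries differed more than 2-fold from each other, which is the widest replicate spread of ndr1 on the log2 scale, at 1.15. Mean levels (SD, n = 2) were 10.8 FPKM ± 6.33 for ovary, 2.79 ± 0.925 for testis and 0.9 ± 0.427 for oocyte. In rank, 53.8% and 47.2% of the features above 0 lay below ndr1 in the oocyte libraries, against 72.8% and 83.8% in the ovary libraries. In oocyte ndr1 thus lay near the middle of the features above 0.

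The lower level of ndr1 in oocyte than in ovary passed the test. On the log2(FPKM + 1) scale the difference of oocyte from ovary was -2.55 (SE 0.416, limma adjusted p = 0.00234), and 5.77% of the 13717 features tested had a lower difference. The difference kept its direction and its side of the threshold under every alternative run, with values from -3.39 to -1.97. Markers of follicle cells, the somatic cells around the oocyte, were also at lower values in oocyte. The 6 features with follicle cell symbols (CYP19A1, FOXL2 under 2 IDs, FSHR, lhcgr and STAR) summed to 7.14 to 14.2 FPKM in ovary. In oocyte they summed to 0.514 to 0.695, with FSHR and a FOXL2 feature listed at 0 in both libraries. They summed higher in testis, to 22.9 to 23.1 FPKM, with STAR at 21.9 and 22, so the list is not particular to ovary. In ovary 4 of the 6 were under 1 FPKM in both libraries. CYP19A1, the aromatase of estrogen synthesis, made up most of the ovary sum, at 4.65 and 11.5 FPKM in ovary replicates 1 and 2. The egg coat gene zp3b was at 1609 and 2445 FPKM in ovary and at 52.7 and 34.4 in oocyte. The part of these cells and stages in the ndr1 difference was not tested. In bulk tissue, fewer cells of a type and less RNA per cell cannot be told apart.

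The other Nodal genes proper, spaw and ndr2, were close to 0. The row selected as ndr2, here spaw (southpaw, the Nodal ligand of left-right asymmetry), was listed at 0.0299 and 0.00838 FPKM in oocyte, 0.00645 and 0.0875 in ovary, and 0.0653 and 0.0264 in testis. The ovary values alone spanned the range of all other libraries, so no order of tissues can be read. The ndr2 row itself, the gene known as cyclops, was at 0.0555 and 0.0201 FPKM in oocyte, 0.212 and 0.21 in ovary, and 0.0275 and 0.0246 in testis. Both ovary libraries lay above the rest, though far under 1 FPKM. Within every library ndr1 exceeded ndr2, by a log2 ratio of the plain FPKM values of 4.44 and 4.9 in oocyte, 4.9 and 6.19 in ovary, and 6.97 and 6.44 in testis. With 1 FPKM added to both values, the ratios were 1.06 and 0.65 in oocyte, 2.6 and 3.75 in ovary, and 2.11 and 1.61 in testis. The order of the tissues thus depended on the added value. The plain ratios divide by values close to 0, so their size is not read.

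The BMP ligand gene bmp2b, known as swirl and required for ventral fates, was listed at 0.0443 and 0.0933 FPKM in oocyte, 0.0675 and 0.0262 in ovary, and 0.0924 and 0.128 in testis. The oocyte range overlapped both of the others. The second row with the symbol BMP2 was as low, between 0.00789 and 0.0971 FPKM over all libraries. Neither spaw nor bmp2b reached the filter of 1 FPKM in at least 2 libraries, so they were tested only in a fit without the filter. In that fit neither was called by limma in any comparison, nor did either reach an unadjusted p under 0.05, beside 22.2%, 28.6% and 32.6% of 28356 features called for oocyte against ovary, testis against ovary and testis against oocyte. The closest to a difference was bmp2b in testis against ovary, at 0.08 on the log2(FPKM + 1) scale with a 95% interval from -0.01 to 0.18 (limma adjusted p = 0.1).

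The BMP antagonist gene chrd was highest in testis, at 1.34 and 1.28 FPKM. It was at 0.14 and 0.205 FPKM in ovary and at 0.0758 and 0.0118 in oocyte. The testis libraries lay above the rest, and the oocyte values were too low to be ordered further. The gene reached the filter only through its testis values, so a higher value in testis was a condition of its being tested and its tests are no independent support. Means (SD, n = 2) were 1.31 FPKM ± 0.0407 for testis, 0.173 ± 0.0455 for ovary and 0.0438 ± 0.0452 for oocyte. The difference of testis from oocyte was 1.15 (SE 0.101, limma adjusted p = 9.31e-05). The 3 features with blood symbols summed to 57.2 to 107 FPKM in testis, against 9.1 to 12.3 in ovary and 10.2 to 12.1 in oocyte. They did not move together. Most of the oocyte sum was cd74a, at 11.7 and 9.89 FPKM there and 6.16 and 7.27 in ovary. In contrast, hbaa1 and lyz were lower in oocyte than in ovary. The testis libraries differed in hbaa1, at 16.4 and 73.9 FPKM. Those of 2 collagen genes summed to 21.1 to 22.9 in testis, 2.79 to 5.59 in ovary and 4.65 to 17.3 in oocyte. The part of such cells in the chrd level was not tested.

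Against ovary, chrd in testis was higher by 0.98 (SE 0.101, limma adjusted p = 0.000249) and so fell just short of the required log2 difference of 1. The ratio of mean FPKM was 7.6, which the added 1 FPKM compresses. Leaving out ovary replicate 2 gave 1.02, and median-of-ratios scaling gave 1.54, both past the threshold. Between oocyte and ovary the difference was -0.17 with a 95% interval from -0.42 to 0.08 (limma adjusted p = 0.196), and -0.95 with 0.1 FPKM added in place of 1. Beside one another, bmp2b and chrd had no fixed order in the oocyte. The log2 ratio of bmp2b to chrd, with 1 FPKM added, was -0.04 and 0.11 in the oocyte libraries, -0.1 and -0.23 in ovary, and -1.1 and -1.02 in testis.

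The BMP transducer gene smad5, known from the maternal-effect mutant somitabun, was the most abundant of the 6 genes in oocyte and in ovary. It was listed at 298 and 354 FPKM in oocyte, 70.4 and 65.9 in ovary, and 21.4 and 31.3 in testis. The tissues did not overlap. The same held for 81.7% of all features tested for oocyte and ovary, 89.3% for testis and ovary, and 90.3% for testis and oocyte. It ranked 322 and 217 from the highest among the features above 0 in the oocyte libraries, 941 and 1070 in ovary, and 1382 and 1074 in testis. Means (SD, n = 2) were 326 FPKM ± 40.1 for oocyte, 68.1 ± 3.16 for ovary and 26.4 ± 7.03 for testis.

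The level of smad5 rose from ovary to oocyte by 2.24 on the log2 scale (SE 0.239, limma adjusted p = 0.00047), and the ratio of mean FPKM was 4.79. Of the 13717 features tested, 93.8% had a smaller difference. Testis was lower than oocyte by -3.6 (SE 0.239, limma adjusted p = 3.15e-05). Both calls held under every alternative, with values from 2.11 to 2.36 and from -3.86 to -2.35.

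The gene ctnnb1 encodes beta-catenin, which serves both cell adhesion and Wnt signalling. It was listed at 109 and 138 FPKM in oocyte, 49 and 47 in ovary, and 22.8 and 37.5 in testis. The oocyte libraries were the highest, and the testis libraries lay below both ovary libraries. As given for smad5, 81.7% to 90.3% of all features tested also did not overlap between 2 tissues. Means (SD, n = 2) were 124 FPKM ± 20.9, 48 ± 1.41 and 30.2 ± 10.4 for the tissues in the same order. The difference of oocyte from ovary was 1.34 (SE 0.275, limma adjusted p = 0.006), with a ratio of means of 2.58. The difference of testis from oocyte was -2.03 (SE 0.275, limma adjusted p = 0.000614), a call lost after median-of-ratios scaling (-0.78) and quantile normalization (-0.51).

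The ratio of ctnnb1 to smad5 was lowest in oocyte and highest in testis. Being formed within a library, it is almost unaffected by how a whole library is scaled. As log2, with 1 FPKM added, it was -1.44 and -1.35 in oocyte, -0.51 and -0.48 in ovary, and 0.09 and 0.25 in testis. No tissue overlapped another, but how often other pairs of features separate in this way was not computed.

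Taking the 6 genes together, 4 passed the filter and entered the tests. Between oocyte and ovary, limma called 49% of all features, 26.8% as higher and 22.2% as lower in oocyte. Of the 4 genes, 2 were called higher (smad5 and ctnnb1) and 1 lower (ndr1). The call for ctnnb1 was lost under quantile normalization, where its difference was 0.91, under the required 1, at a limma adjusted p of 0.0199. The libraries of oocyte and ovary did not overlap for the 4 genes tested, nor for 81.7% of all features tested.

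Between testis and ovary, 60.2% of all features were called, 16.4% as higher and 43.8% as lower in testis. Of the 4 genes, 2 were called lower, ndr1 and smad5, and none higher. chrd, which entered the tests only through testis, was higher by 0.98 (limma adjusted p = 0.000249), under the required 1. Calls in this comparison depended on how the libraries were scaled. The median difference of all tested features was -0.82 as deposited and -0.02 after median-of-ratios scaling. The difference of ndr1 was -1.55 (SE 0.416, limma adjusted p = 0.0146) as deposited and -0.6 (limma adjusted p = 0.225) after median-of-ratios scaling. That of smad5 was -1.36 (SE 0.239, limma adjusted p = 0.00241) as deposited and -0.21 (limma adjusted p = 0.495) after that scaling. That of ctnnb1 was -0.69 (SE 0.275, limma adjusted p = 0.0591) and changed sign, to 0.45. The call for ndr1 was also lost when ovary replicate 2, testis replicate 1 or testis replicate 2 was left out, at differences of -0.98, -1.8 and -1.3. Without testis replicate 2 the difference of ctnnb1 was -1.04 and passed.

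Between testis and oocyte, 67.9% of all features were called, 22.3% as higher and 45.6% as lower in testis, with a median of -0.79. Of the 4 genes, 2 were called lower (smad5 and ctnnb1) and 1 higher (chrd, which entered the tests only through testis). For ndr1 the difference was 0.99 (SE 0.416, limma adjusted p = 0.0658) as deposited, and it passed after median-of-ratios scaling, at 1.82 (limma adjusted p = 0.00593).

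**Figure D2:**
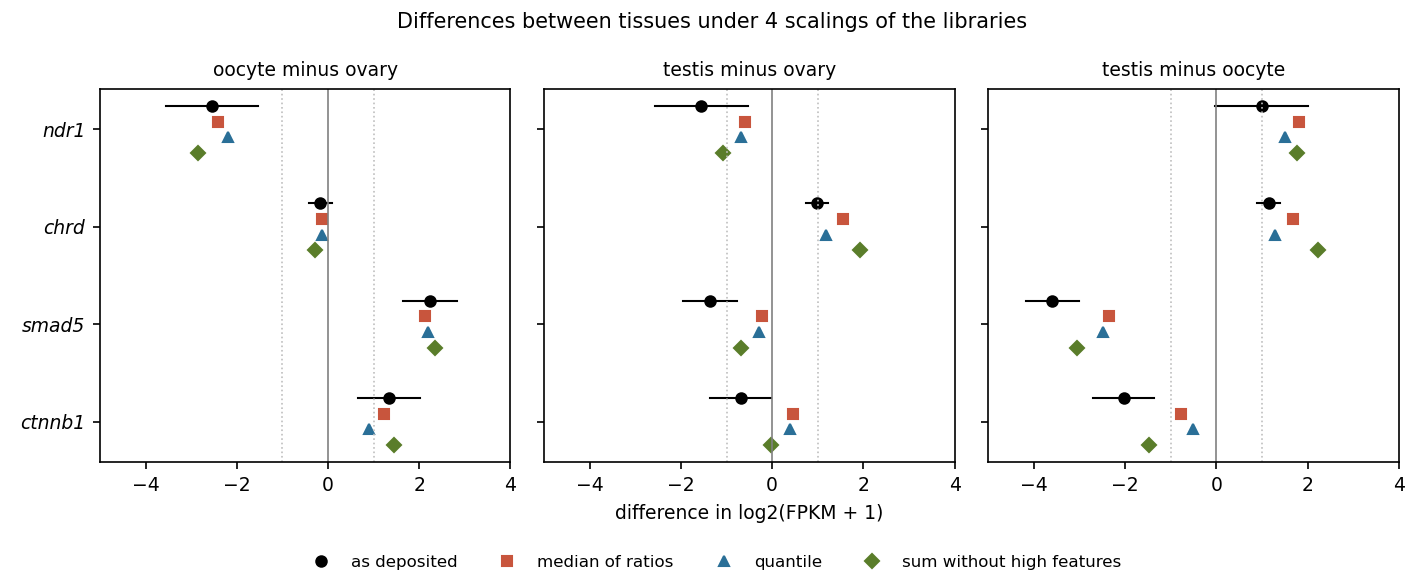
Differences in log2(FPKM + 1) between tissues for the 4 genes that passed the filter, as deposited (circles with 95% intervals from limma) and under 3 other scalings of the libraries. Dotted lines mark differences of -1 and 1. The oocyte to ovary differences of ndr1 (-2.55) and smad5 (2.24) stay beyond these lines, whereas the testis to ovary differences of smad5 and ctnnb1 approach or cross 0.

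Relatives of smad5 and ctnnb1 were compared with them, a choice made after their values were seen. The BMP Smads are 3 related transducers that receptors phosphorylate. In oocyte smad1 was at 0.122 and 0.124 FPKM and smad9 at 2.39 and 2.28. The FPKM of smad5 was 2450 and 2857 times that of smad1 and 125 and 155 times that of smad9 in the oocyte libraries. In ovary the factors were 676 and 517 for smad1 and 36 and 26.3 for smad9. In testis they were 8.48 and 14.1 for smad1 and 3.68 and 5.69 for smad9. The excess of smad5 over smad9 was thus largest in the oocyte libraries and smallest in the testis libraries, without overlap. The share of other pairs of features that separate in this way was not computed. For smad1 the factors in oocyte and ovary divide by values near 0.1 FPKM, so their size is not read. In testis smad1 was at 2.52 and 2.23 FPKM, and it reached the filter only there, so no test of it is given. For smad9 testis was higher than ovary, by 1.05 (SE 0.179, limma adjusted p = 0.00208), and by 2.01 after median-of-ratios scaling.

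The second beta-catenin gene, ctnnb2, known from the maternal-effect mutant ichabod, exceeded ctnnb1 in every library. It was listed at 638 and 582 FPKM in oocyte, 136 and 162 in ovary, and 42 and 65 in testis. The ratio of ctnnb2 to ctnnb1 was 5.86 and 4.2 in oocyte, 2.77 and 3.46 in ovary, and 1.84 and 1.73 in testis. In oocyte ctnnb2 was higher than in ovary by 2.03 (SE 0.268, limma adjusted p = 0.000988). How fragments that match both genes were assigned is not given in the sources used here, so the split between these similar genes is uncertain.

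**Figure D3:**
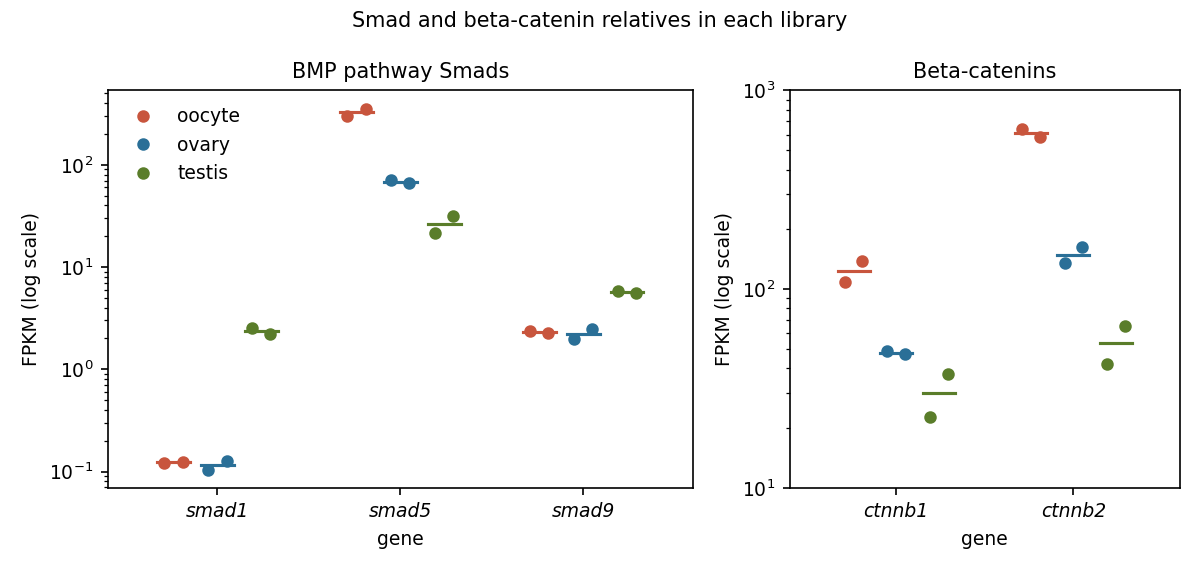
FPKM (log scale) of the BMP Smads (left) and the beta-catenins (right), with points for the 2 libraries of a tissue and bars for their mean. In oocyte smad5 stands at 298 and 354 FPKM against 0.122 and 0.124 for smad1, and ctnnb2 at 638 and 582 FPKM against 109 and 138 for ctnnb1.

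The wider pathways were described with lists of 23 Nodal, 32 BMP and 30 beta-catenin features, which include the 6 genes and ndr2, with the SMAD4 features in both of the first lists. Of the 4 Nodal ligands listed, 1 was detected at 1 FPKM in both oocyte libraries. It was gdf3 (Vg1, a ligand that pairs with Nodal), at 122 and 396 FPKM in oocyte, 247 and 91.1 in ovary, and 1.22 and 1.19 in testis. All 6 activin receptor features were detected in oocyte, as were tdgf1 at 21.9 and 19.2 FPKM and foxh1, the Smad partner that binds Nodal targets, at 26.1 and 24.6 FPKM. Neither of the antagonists lft1 and lft2 was detected in any tissue. Of 17 tested Nodal features, 6 were called higher and 2 lower in oocyte than in ovary, with a median of 0.55 beside 0.02 over all features. Of all features tested, 26.8% were called higher and 22.2% lower, and the same shares apply to the BMP and beta-catenin counts. The 3 largest increases were an ACVR2B feature at 3.62 (SE 0.247, limma adjusted p = 0.000177) and both ACVR1B features, at 2.88 and 2.68. That ACVR2B feature, at 0.979 and 1.06 FPKM in ovary, reached the filter only through oocyte. Its call is no independent support and could only add to the higher side. Of the 6 activin receptor features, 5 were called higher, with that ACVR2B feature among them. The other, ACVR2A, had a difference of -0.86 that was not called (limma adjusted p = 0.007). The 2 decreases in the list were ndr1 and a feature of FURIN, a protease that cleaves such ligands.

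In the BMP list, none of the 4 ligands and none of the 4 antagonist features was detected in oocyte, whereas 5 of 7 receptor features and 3 of 5 transducer features were. Of 18 tested BMP features, 3 were called higher and 2 lower in oocyte than in ovary, with a median of -0.03, so neither count was above its share over all features. Only 1 was lower without oocyte replicate 2, ovary replicate 2 or either testis replicate, and 4 were with 0.1 FPKM added in place of 1. Next to smad5 the largest increase was that of acvr1l (the BMP receptor Alk8), at 18.7 and 44.4 FPKM in oocyte, 6.79 and 6.46 in ovary, and 1.68 and 1.19 in testis. Its difference was 1.97 (SE 0.391, limma adjusted p = 0.0052). The receptor gene bmpr1ba was lower in oocyte, by -1.57 (SE 0.463, limma adjusted p = 0.0248). The BMP ligand gene gdf6a, the other decrease, was at 0.248 and 0.245 FPKM in oocyte and 1.8 and 2.15 in ovary. It reached the filter only through its ovary values, so its call (-1.25, SE 0.118, limma adjusted p = 0.000324) is no independent support. It could only add to the lower side of the count.

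Of 24 tested beta-catenin features, 10 were called higher and none lower in oocyte than in ovary, beside 26.8% and 22.2% of all features. Their median was 0.79. Among the 10 was LRP5, which reached the filter only through oocyte and so could only add to the higher side. At an unadjusted p under 0.05, 2 were lower. Median-of-ratios scaling, quantile normalization and leaving out oocyte replicate 2 each called 1 as lower, and leaving out oocyte replicate 1, 0.1 FPKM in place of 1, or the adjusted p alone called 2. Of the 7 features of the complex that destroys beta-catenin, 5 were called higher. The scaffold gene APC was at 27.8 and 34.7 FPKM in oocyte and 3.77 and 4.72 in ovary, a difference of 2.62 (SE 0.215, limma adjusted p = 0.000233). A GSK3A feature, a kinase of the same complex, differed by 1.98 (SE 0.251, limma adjusted p = 0.00084). The gene hwa (huluwa, a maternal activator of beta-catenin) was at 49.2 and 23.3 FPKM in oocyte and 50.6 and 80.7 in ovary, a difference of -0.89 that was not called (limma adjusted p = 0.09). In testis hwa was at 1.09 and 1.36 FPKM. The zygotic organizer gene dharma and the Wnt antagonist gene dkk1b were detected in none of the tissues.

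In testis against ovary, 2 Nodal features were called higher and 11 lower, 5 and 8 of the BMP list, and 1 and 13 of the beta-catenin list, beside 16.4% and 43.8% of all features. Features that entered the tests only through testis can only add to the higher side. Among the BMP calls against ovary these were an FST feature, smad1 and a SMAD4 feature. That SMAD4 feature was also among the Nodal calls, and TCF7L2, another such feature, was the only higher beta-catenin call. chrd entered in the same way but was not called against ovary. Against ovary, gdf6a, which entered only through ovary, can only add to the lower side. Without testis replicate 2 no Nodal feature was higher, and without ovary replicate 1 the Nodal and BMP lists had 1 and 3. After median-of-ratios scaling these counts were 4 and 5, 7 and 3, and 3 and 5. Under that scaling 3688 of all 13717 features tested were higher and 3120 lower. The largest decreases were those of gdf3 at -6.1 (SE 0.653, limma adjusted p = 0.000286), hwa at -4.87 (SE 0.392, limma adjusted p = 9.64e-05) and foxh1 at -4.57 (SE 0.185, limma adjusted p = 1.38e-05). After median-of-ratios scaling these were -5.24, -4.01 and -4.07, all called. The inhibitory Smad gene SMAD7 was higher, by 2.15 (SE 0.288, limma adjusted p = 0.000717). Against oocyte, 1 Nodal feature was called higher and 10 lower in testis, 5 and 8 of the BMP list, and 1 and 17 of the beta-catenin list, beside 22.3% and 45.6% of all features. Without testis replicate 2, 5 BMP features were lower. The higher calls against oocyte that entered only through testis were chrd, an FST feature, smad1 and vox in the BMP list, and TCF7L2. An ACVR2B feature and LRP5, which entered only through oocyte, can only add to the lower side here, though LRP5 was not called (-0.97). After median-of-ratios scaling the counts against oocyte were 4 and 9, 7 and 3, and 4 and 9. Under that scaling 4631 of all 13717 features tested were higher and 4040 lower.

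**Figure D4:**
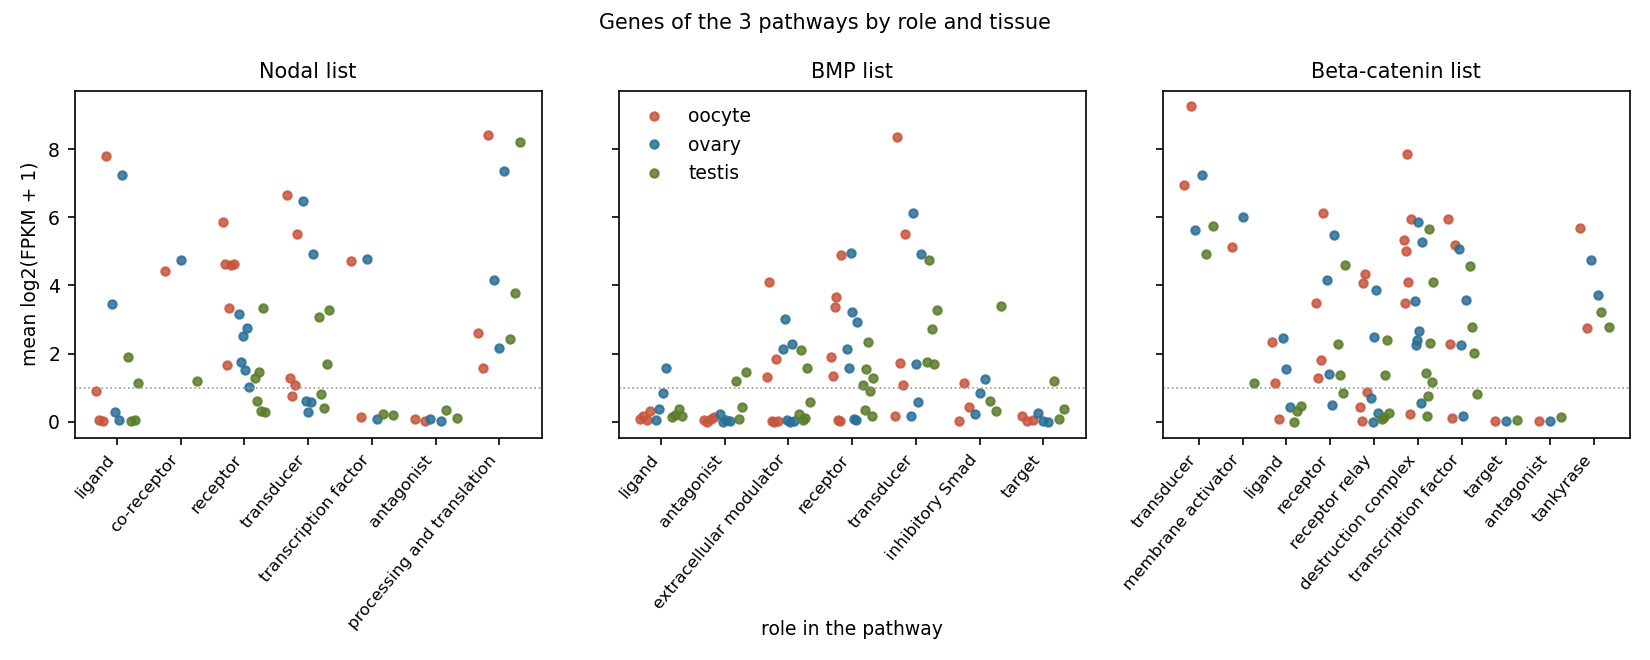
Mean log2(FPKM + 1) over the 2 libraries of a tissue for each listed feature, grouped by role in the Nodal, BMP and beta-catenin pathways. The dotted line marks 1 FPKM. In oocyte the Nodal and BMP ligands other than gdf3, and the antagonists of all 3 lists, lie under the line. Receptors, transducers and destruction complex features reach higher values, although some of each also lie under it. The ligands of the beta-catenin list lie on both sides of it.

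The features with the profile most like each gene over the 6 libraries were found by Euclidean distance of log2(FPKM + 1). That of smad5 was CNOT8, at a distance of 0.257, with 294 and 350 FPKM in oocyte and 70.2 and 65.1 in ovary. That of ctnnb1 was brk1 (0.366), that of ndr1 was TIMM8A (0.561) and that of chrd was ANXA6 (0.119). For spaw and bmp2b the nearest features, ENSDARG00000089377 and ENSDARG00000102545, only share values near 0.

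The labels were checked against marker genes. The egg surface gene bouncer was at 1234 and 652 FPKM in oocyte, 491 and 676 in ovary, and 1.52 and 1.06 in testis. The 7 egg and germ cell markers together summed to 1050 to 1564 FPKM in oocyte, 3357 to 4414 in ovary and 150 to 197 in testis. They did not all follow bouncer. ZAR1, an oocyte gene, was at 11.3 and 9.06 FPKM in oocyte and 1102 and 1172 in ovary, and DDX4, a germ cell gene of both sexes, was highest in testis at 70.8 and 69 FPKM. The 5 features with testis symbols summed to 1317 to 1433 FPKM in testis, 13.6 to 28.5 in ovary and 4.51 to 5.48 in oocyte. A single feature made up 77.6% to 98% of the FPKM sum of a library, so sums and shares of sums were not compared.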

How the data were processed

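The authors deposited 1 table of FPKM values with a column for each of 6 libraries and no pooling. Per the labels' protocols, RNA was isolated by TRIzol, DNA was removed with DNase, and strand-specific libraries were made with the TruSeq RNA Library Prep Kit v2 for paired reads. TopHat, Bowtie2, Cuffnorm and the build GRCz10 are named per the submitters' processing notes. Versions, annotation, scaling between libraries and the treatment of shared fragments are not given in the sources used here.

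The values were transformed to log2(FPKM + 1). Features with at least 1 FPKM in at least 2 libraries were kept, which left 13717, and limma 3.58.1 in R 4.3.3 was fitted to all 6 libraries with a mean per tissue (3 residual degrees of freedom, eBayes with trend=TRUE). Tests were two-sided. A feature was called at a Benjamini-Hochberg adjusted p under 0.05 over all features tested together with a log2 difference of 1 or more in either direction. The added 1 FPKM understates differences of low features. In simulated data with 200 changed features, the fit recovered 171 for testis against ovary and 172 for testis against oocyte. Features counted as wrong were 5 and 2. Between oocyte and ovary 0 features were changed and 0 were wrong, so recovery there was not tested. The design allows no useful permutation test with 2 libraries against 2. Replicate numbers are shared between tissues, and the check of whether they pair the libraries is given with the alternatives.

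Symbols came from a table of gene names, which matched 26411 of 32253 features. Listed symbols ending in a or b that it lacked were matched without that letter, so the copies cannot be told apart, and nog1 and btrc were unmatched. The 6 genes and the lists were chosen with earlier results of these data known. The rule for names took the 6 genes, the nearest feature of each and the 3 largest called differences per list and comparison. ndr2, smad1, smad9, gdf6a, ACVR2A, tdgf1, dharma, dkk1b, lft1, lft2 and the FURIN decrease were named after their values were seen. So were FST, vox, TCF7L2, LRP5, a SMAD4 feature and the marker genes. The same holds for ctnnb2 and hwa where the rule did not reach them.

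Absolute depth is unknown. From the steps of features under a geometric mean of 0.02 FPKM, the denominator of replicate 2 was 1.18 times that of replicate 1 in oocyte, 0.74 in ovary and 0.781 in testis. Counting errors and limits of detection therefore cannot be stated, and values near 0 rest on an unknown, small number of fragments. Alternatives were another pseudocount, filter, scaling, variance model, block and call rule, and leaving out each library.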

Additional observations from a re-analysis of the deposited data

How the results depend on the processing

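Of 201 tested differences of ndr1, chrd, smad5 and ctnnb1 under an alternative, 176 had the reported direction and side of the threshold. The chrd tests among them are no independent support, since chrd reached the filter of 1 FPKM only through testis. Another filter, variance model, block or call rule leaves the difference itself unchanged. So does leaving out the tissue not compared or any library of it. In those alternatives only the call could move, and the adjusted p alone could not lose a call. Median-of-ratios scaling gave, for testis against ovary, -0.60 for ndr1, -0.21 for smad5, 1.54 for chrd (now called) and 0.45 for ctnnb1 (sign changed). For testis against oocyte it gave 1.82 for ndr1 (now called) and -0.78 for ctnnb1 (not called). Quantile normalization gave, in the same order, -0.69, -0.28, 1.17, 0.40, 1.5 and -0.51, and 0.91 for ctnnb1 in oocyte against ovary. Rescaling to a sum of 1000000 without features above 10000 FPKM gave -1.07 for ndr1, -0.69 for smad5 and 1.94 for chrd against ovary, and 1.77 for ndr1 against oocyte. The median differences of all features in the testis comparisons, -0.82 and -0.79 as deposited, were -0.02 and 0.03 after median-of-ratios scaling, -0.21 and -0.22 after quantile normalization, and -0.41 and -0.51 after rescaling. A pseudocount of 0.1 FPKM gave 2.38 for chrd against ovary and 1.56 for ndr1 against oocyte, and the adjusted p alone called chrd at 0.98. With 1 library left out, and a lone library assumed to vary like the other tissues, testis against ovary ranged from -2.13 to -0.98 for ndr1, from 0.94 to 1.02 for chrd and from -1.04 to -0.35 for ctnnb1.

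The counts of features called stayed within 1.5 times the reported 6716, 8262 and 9311 in all alternatives, but the split in the testis comparisons moved. After median-of-ratios scaling, 3688 features were higher and 3120 lower in testis than in ovary, and 4631 and 4040 against oocyte. With the replicate number as a block the counts were 6679, 8217 and 9273, and the block changed no call of the 4 genes. The replicate differences of the tissues correlated across features at -0.346 (oocyte and ovary), 0.243 (ovary and testis) and -0.214 (oocyte and testis), so equal numbers were not taken as pairs. With the oocyte numbers exchanged the counts were 6819, 8365 and 9386. Of 306 list counts under an alternative, 55 moved by more than 1.5 times. The detection thresholds of 0.1 and 5 FPKM, added after the data were seen, gave 3 and 2 of the 6 genes in oocyte, 4 and 3 in ovary, and 4 and 2 in testis. The shares of all features were 45.5% and 19.8% in oocyte, 47.2% and 20.6% in ovary, and 57.5% and 12.9% in testis. With the filter at 5 FPKM chrd could not be tested. At unknown depth, no order is read from levels under 0.1 FPKM.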
